A study of Mus musculus with 2 samples.

Results

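Chondroitin sulfate proteoglycans, their growth factor ligands and their matrix partners were followed as a set of 10 genes in the neural tube of the mouse embryo, from which brain and spinal cord form. The set was chosen by gene symbol and covers the 4 lecticans Ncan, Bcan, Vcan and Acan, the membrane proteoglycans Cspg5 and Ptprz1, the ligands Ptn and Mdk, and the matrix partners Hapln1 and Tnc. These are 10 of the 43346 mouse genes measured. Total RNA was sequenced from neural tube of B6NCrl embryos on embryonic day 13.5, with male and female embryos pooled, from 10 ng of RNA to which spike-in RNA had been added. There were 2 libraries, biological replicates 1 and 2 of a single group, so the levels are described within that group and the libraries are set against each other. The labels do not say how many embryos were pooled or which levels of the tube were taken.

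A proteoglycan is a core protein that carries long sulfated sugar chains, here of chondroitin sulfate. Lecticans bind hyaluronan at one end, a bond that link proteins such as the product of Hapln1 stabilise, and bind tenascins such as Tnc at the other, so that the matrix between neural cells is cross-linked. Ptprz1 is a receptor tyrosine phosphatase with chondroitin sulfate on its outer part. Pleiotrophin (Ptn) and midkine (Mdk) bind those chains, and pleiotrophin is known to shut off the phosphatase. In the developing nervous system these molecules are known for their effects on axon growth, neural crest migration and progenitor behaviour.

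TPM is a transcript level corrected for length and scaled to a fixed total in each library, so it can be compared between genes. All 10 genes had reads in both libraries, and 9 reached 1 TPM, the level called detected here, in both. The pair of ligands stood highest, Ncan stood next, and Hapln1 and Acan stood lowest. The order by mean TPM was Mdk, Ptn, Ncan, Bcan, Cspg5, Vcan, Ptprz1, Tnc, Hapln1 and Acan. It was the same in both libraries for 8 of the 10, and Vcan and Ptprz1 changed places. Of the 9 pairs of neighbours in the order, 7 did not overlap between the libraries, and the 2 that overlapped were Mdk with Ptn and Vcan with Ptprz1. Together the 10 genes held 39594 and 27933 estimated reads in replicates 1 and 2, or 0.123% and 0.132% of the reads on mouse genes, and summed to 630.9 and 715.3 TPM. The libraries held 34125110 and 22311849 estimated reads, of which 32151162 and 21084234 fell on mouse genes.

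**Figure D1:**
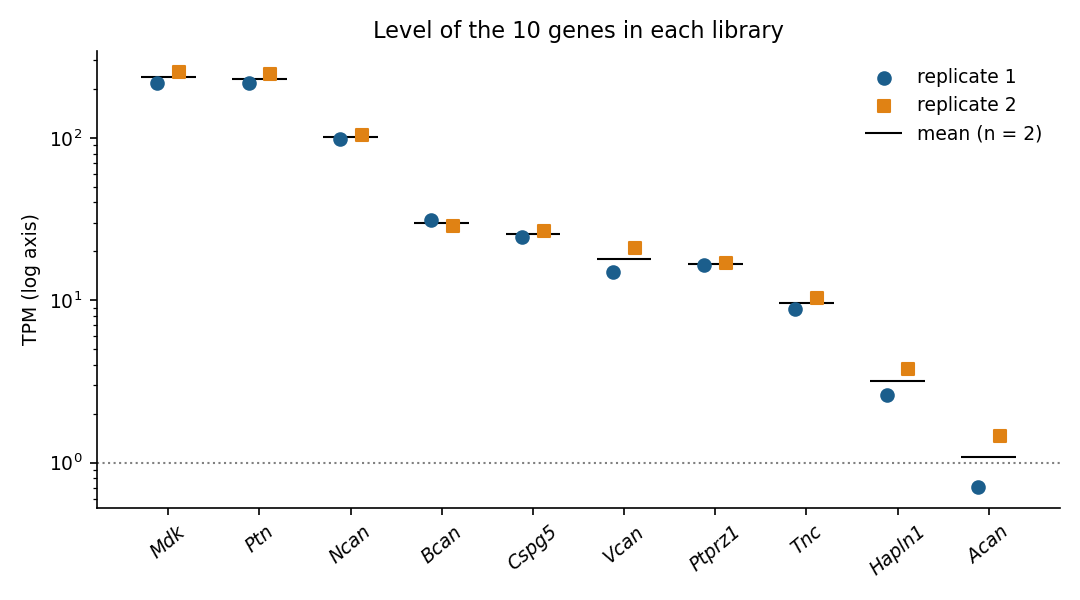
TPM of each of the 10 genes on a log axis, ordered by mean level, with replicate 1 as circles, replicate 2 as squares and the mean of both as a bar; the dotted line marks 1 TPM. Mdk and Ptn lie together above 200 TPM, and Acan is the one gene with a library below the dotted line.

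Vcan and Tnc have alternative exons whose use was estimated, and the joins between exons are what tells their forms apart. In Vcan a pair of very long exons each encodes a stretch to which chondroitin sulfate is attached. On mm10, chromosome 13, minus strand, the first is 2880 bases, or 960 codons, at 89702918 to 89705797, and the second is 5217 bases, or 1739 codons, at 89688285 to 89693501. They are exons 7 and 8 of the 15 in the longest model, both entirely coding. The following joins show 25 bases of the upstream exon in lower case and 25 bases of the downstream exon in capitals, read 5′ to 3′ from GENCODE M21 transcripts, and each was found in transcripts of Vcan alone.
exon 6 to first chondroitin exon: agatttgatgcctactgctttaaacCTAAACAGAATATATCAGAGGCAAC
first to second chondroitin exon: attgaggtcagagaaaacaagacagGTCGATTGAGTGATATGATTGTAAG
second chondroitin exon to exon 9: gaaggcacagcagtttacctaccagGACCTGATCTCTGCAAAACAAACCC
exon 6 to second chondroitin exon: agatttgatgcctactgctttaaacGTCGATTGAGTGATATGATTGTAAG
first chondroitin exon to exon 9: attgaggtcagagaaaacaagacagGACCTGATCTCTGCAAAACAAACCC
exon 6 to exon 9, both skipped: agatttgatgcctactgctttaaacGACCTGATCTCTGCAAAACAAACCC

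In Tnc the models differ by 1 alternative coding exon of 273 bases, or 91 codons, on mm10 chromosome 4, minus strand, 63984460 to 63984732, which is exon 14 of 26. The joins that mark it are printed the same way, followed by the exon itself in lower case.
upstream exon to alternative exon: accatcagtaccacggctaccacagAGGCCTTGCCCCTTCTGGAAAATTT
alternative exon to downstream exon: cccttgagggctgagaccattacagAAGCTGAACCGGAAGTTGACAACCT
alternative exon skipped: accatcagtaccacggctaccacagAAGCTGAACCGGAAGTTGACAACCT
alternative exon: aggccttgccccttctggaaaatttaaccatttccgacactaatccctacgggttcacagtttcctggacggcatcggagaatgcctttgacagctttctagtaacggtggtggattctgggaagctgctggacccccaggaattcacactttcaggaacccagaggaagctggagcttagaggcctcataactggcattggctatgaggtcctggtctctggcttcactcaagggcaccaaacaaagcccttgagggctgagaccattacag

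Among the lecticans, Ncan was the dominant transcript. Neurocan, its product, is a secreted lectican made by neurons and known from developing brain. Ncan (ENSMUSG00000002341.8, chromosome 8, 70093085 to 70120873, minus strand) had 15835 and 10566 reads and 98.7 and 103.9 TPM in replicates 1 and 2, a mean of 101.3 ± 3.68 TPM (SD, n = 2). That placed it above 88.9% of detected protein-coding genes. Bcan encodes brevican, a lectican known mainly from glia of later brain. It had 1769 and 1019 reads and 31.1 and 28.6 TPM, a mean of 29.9 ± 1.73 TPM (chromosome 3, 87987531 to 88000230, minus strand). Ncan was 3.40 ± 0.32 times Bcan in TPM, and the 2 genes did not overlap.

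Vcan and Acan were the lower lecticans, and both were lower in replicate 1. Versican, the product of Vcan, is a large lectican of embryonic mesenchyme and neural tissue known to repel migrating neural crest cells. Vcan (ENSMUSG00000021614.12, chromosome 13, 89655312 to 89742509, minus strand) had 2464 and 2255 reads and 14.8 and 20.9 TPM in replicates 1 and 2, a mean of 17.9 ± 4.31 TPM. Aggrecan, the product of Acan, is the main proteoglycan of cartilage and, in the mature nervous system, of perineuronal nets. Acan had 116 and 151 reads and 0.71 and 1.45 TPM, a mean of 1.08 ± 0.523 TPM, and fell short of 1 TPM in replicate 1 (chromosome 7, 79053483 to 79115099, plus strand). Its mean lay above only 0.128% of detected protein-coding genes, to which it does not itself belong.

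The composition of the lectican transcripts followed from these levels. Of 145.3 and 154.9 TPM summed over the 4 genes in replicates 1 and 2, Ncan held 67.9% and 67.1%, Bcan 21.4% and 18.5%, Vcan 10.2% and 13.5%, and Acan 0.489% and 0.936%. The mean Ncan share was 67.5% ± 0.598 (SD, n = 2). The Bcan share was 19.9% ± 2.05 and the Vcan share 11.9% ± 2.33. Ncan exceeded Vcan by 6.65 and 4.96 times in replicates 1 and 2. These are shares of transcripts in whole tissue, and in such bulk samples fewer cells of a type and less RNA per cell cannot be told apart.

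Vcan transcripts were divided mainly between the form with both chondroitin exons and the form with neither. Isoform percent is the share of a gene's TPM that the deposited estimate gives to one transcript model. The model with both exons (Vcan-203, the form known as V0) held 48.05% and 50.8% in replicates 1 and 2, a mean of 49.4% ± 1.93 (SD, n = 2). The model with neither (Vcan-201, known as V3) held 29.0% and 32.6%, a mean of 30.8% ± 2.57. The form with neither exon carries no chondroitin sulfate stretch in its core protein. The other full-length forms were scarce in both libraries. The second exon alone (Vcan-206, known as V1) held 5.61% and 4.17%, and the first exon alone (Vcan-202, known as V2, a form known from mature brain) held 2.21% and 0%. The remaining 15.1% and 12.4% were given to 5 partial models that hold neither long exon.

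By reads the picture was less even, since the model with both exons is 12427 bases long and that with neither is 2321. The model with both exons took 1988 and 1878 reads, or 80.7% and 83.3% of the Vcan reads in replicates 1 and 2, and the model with neither took 216.3 and 217.5 reads, or 8.78% and 9.65%. In TPM the form with both exons stood at 7.13 and 10.6 in replicates 1 and 2 and the form with neither at 4.30 and 6.83, so both were lower in replicate 1. Among the 4 full-length models, 59.3% and 58.0% of TPM held the first chondroitin exon and 63.2% and 62.7% held the second, which the libraries gave within 2 percentage points of each other.

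The division of Vcan rests on more than the joins. The form with the first exon alone was given 41.5 reads in replicate 1 with a posterior SD of 28.2 reads, and 0 reads in replicate 2 with a posterior SD of 25.4, so its presence was not resolved at this depth. Its posterior mean share was 2.68% and 1.62% of Vcan in replicates 1 and 2, so the 0 in replicate 2 depends on which estimate is used. The annotated last exons differ too, with 2047 bases in the model with both exons, 1019 with the second alone, 714 with the first alone and 303 with neither. Reads from the longest end can be given only to the model with both exons, and the part this plays in the shares was not tested.

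**Figure D2:**
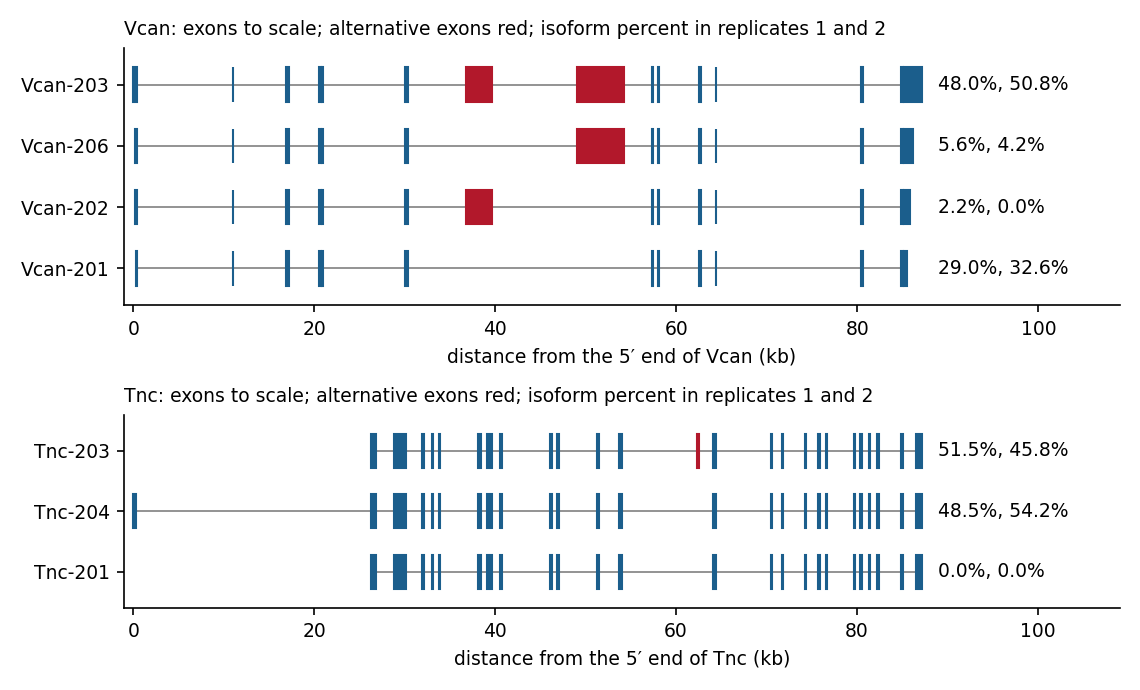
Exon maps of the 4 full-length Vcan models and the 3 full-length Tnc models, drawn to scale by distance from the 5′ end of the gene in kilobases, with alternative exons in red. Isoform percents in replicates 1 and 2 stand at the right; Vcan-203 with both red exons and Vcan-201 with neither hold most of Vcan, and Tnc is split between Tnc-203 and Tnc-204.

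**Figure D3:**
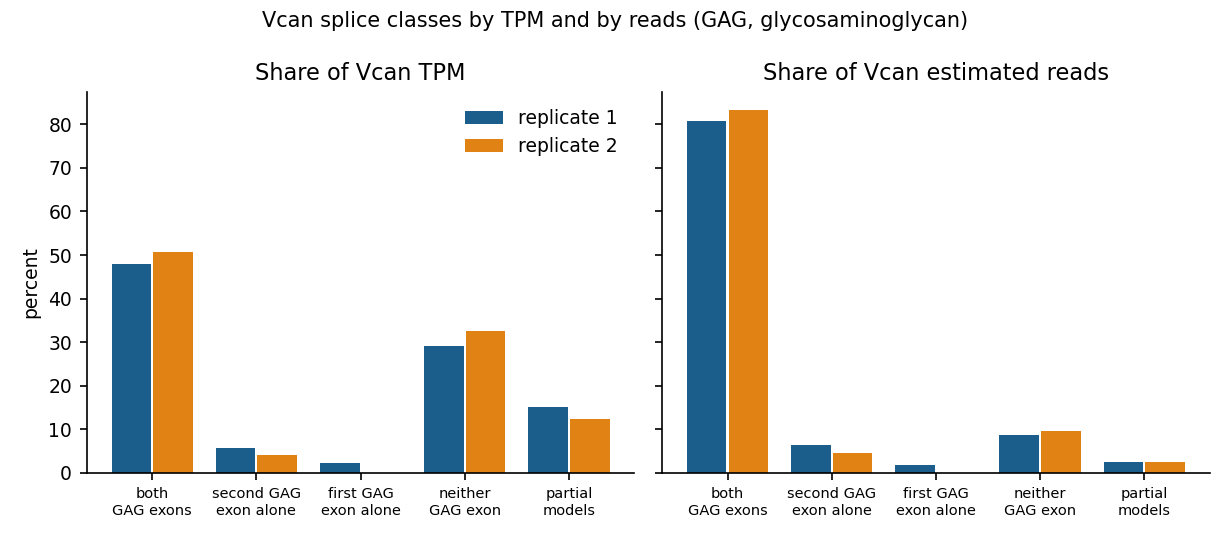
Share of Vcan TPM at the left and of Vcan estimated reads at the right, in percent, for each class of model, with replicate 1 as blue and replicate 2 as orange bars. The class with neither chondroitin exon holds 29.0% and 32.6% of TPM but 8.78% and 9.65% of reads.

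Bcan was given a fraction of transcripts with retained introns by the deposited estimate. Its coding models took 76.2% and 75.2% of its TPM in replicates 1 and 2, and its 4 retained-intron models took 23.8% and 24.8%. The Bcan level, its lectican share and its ratios to Ncan and Cspg5 take in all of these models. By reads, the retained-intron models held 9.47% and 7.87%, being shorter than the main coding model. These were 167.6 and 80.15 reads in replicates 1 and 2. In replicate 1 their posterior SDs ran from 3.26 of 12.5 reads for Bcan-204 to 45.8 of 33.9 for Bcan-203. In replicate 2 Bcan-203 was at 0 reads with a posterior SD of 20.75. Ncan was quantified from its only GENCODE M21 model, and Acan from 1 of 2.

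The membrane proteoglycans stood at middle levels and were nearly alike in the libraries. Cspg5 encodes neuroglycan C, a transmembrane proteoglycan of neurons with an EGF-like domain. It had 2081 and 1441 reads and 24.4 and 26.7 TPM in replicates 1 and 2, a mean of 25.5 ± 1.60 TPM (chromosome 9, 110243783 to 110262576, plus strand). Ptprz1, the phosphatase receptor of pleiotrophin and midkine and a known product of radial glia, had 2955 and 1938 reads and 16.4 and 17.0 TPM. Its mean was 16.7 ± 0.403 TPM (chromosome 6, 22875502 to 23052916, plus strand). Bcan exceeded Cspg5 by 1.17 ± 0.141 times, the narrowest gap in the order among pairs that did not overlap. That gap counts the retained-intron models of Bcan. Its coding models alone stood at 23.7 and 21.5 TPM in replicates 1 and 2, below Cspg5 in both libraries. Cspg5 was quantified from 1 of its 5 GENCODE M21 models.

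Ptprz1 is known to give a long receptor, a short receptor that lacks most of the chondroitin-bearing stretch, and a secreted form called phosphacan. GENCODE M21 lists 6 Ptprz1 models, of which 3 are coding. The longest has 6936 coding bases in 30 exons, another has 4389 coding bases in 30 exons, and the third, with 4836 coding bases, stops after 12 exons. The largest exon has 3547 bases in the first of these and 1000 bases in the second. The tables held the longest model alone, so its isoform share of the gene was fixed and the 3 forms could not be told apart here.

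The ligands were the most abundant of the set. Pleiotrophin and midkine are small secreted heparin-binding growth factors that form a family of their own. Mdk had 3290 and 2463 reads and 217.1 and 256.0 TPM in replicates 1 and 2, a mean of 236.5 ± 27.5 TPM (SD, n = 2; chromosome 2, 91929805 to 91932297, minus strand). Ptn had 9401 and 6795 reads and 216.3 and 246.7 TPM, a mean of 231.5 ± 21.5 TPM (chromosome 6, 36714929 to 36810220, minus strand). Both lay above 95% of detected protein-coding genes, and both were lower in replicate 1.

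The levels of the ligands overlapped. The ratio of Mdk to Ptn was 1.00 and 1.04 in replicates 1 and 2 in TPM, or 0.03 ± 0.03 on the log2 scale (SD, n = 2), which is within the spread between the libraries. In reads the ratio was 0.350 and 0.362, since the Mdk transcript is much the shorter. The ligands together, at 433.4 and 502.7 TPM, exceeded Ptprz1 by 26.4 and 29.6 times, or 4.81 ± 0.12 on the log2 scale. The Ptprz1 level rests on its longest model alone, and the part of its shorter forms in this ratio was not tested. Ptn exceeded the next gene, Ncan, by 2.28 ± 0.129 times.

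Mdk was divided among 4 models that share 1 set of coding exons of 420 bases and differ only in their ends. Mdk-202 held 82.6% and 88.9% of Mdk TPM in replicates 1 and 2. Mdk-204 held 8.83% and 3.88%, and Mdk-203 held 8.11% and 6.71%. The posterior SD of the Mdk-204 reads was 73.2 of 291.2 in replicate 1 and 40.03 of 95.6 in replicate 2. Ptn was quantified from 1 of its 2 GENCODE M21 models, and the part of the other in the Mdk to Ptn ratio was not tested.

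The matrix partners were lower than most of the proteoglycans they bind. Tnc, which encodes the glycoprotein tenascin-C of glia and mesenchyme, had 1391 and 1039 reads and 8.78 and 10.35 TPM in replicates 1 and 2, a mean of 9.57 ± 1.11 TPM (chromosome 4, 63959785 to 64047015, minus strand). Hapln1, which encodes the link protein that fastens lecticans to hyaluronan, had 292 and 266 reads and 2.61 and 3.75 TPM, a mean of 3.18 ± 0.806 TPM (chromosome 13, 89539796 to 89611652, plus strand). Hapln1 and Vcan are neighbours on chromosome 13, 43659 bases apart with 0 annotated genes between them. Ncan exceeded Hapln1 by 37.8 and 27.7 times in TPM, and the 4 lecticans together exceeded it by 55.7 and 41.3 times. Against all 4 link protein genes the lecticans stood 34.2 and 27.7 times higher. Hapln1 was quantified from 1 of its 2 GENCODE M21 models, and the part of the other in these ratios was not tested.

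Among the annotated models, Tnc was split nearly evenly over the alternative exon. The model with the 273-base exon (Tnc-203) held 51.5% and 45.8% of TPM in replicates 1 and 2, a mean of 48.6% ± 4.02 (SD, n = 2). Models without it held 48.5% and 54.2%, all of it given to Tnc-204, while Tnc-201 and the partial Tnc-202 were at 0 reads in both libraries. The libraries placed the larger share on opposite sides, so neither form was higher beyond the spread. The reads behind the shares were 716.1 and 475.8 with the exon and 674.8 and 563.2 without it. Tnc-204 also has a first exon of 267 bases that Tnc-203 lacks, so the split rests on that 5′ exon as well as on the alternative exon, and posterior SDs of the reads were 63.4 to 72.9. The full-length models share all their other exons, so forms that skip any of those could not be told apart here.

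Of the other genes of these pathways, 62 of 73 were detected in both libraries, against 13263 of all 21474 protein-coding genes. The median over all 73 was 8.38 TPM. It was 4.97 TPM over all protein-coding genes and 18.5 TPM over the detected ones. The counts that follow are of genes at 1 TPM or more in both libraries. Other proteoglycan core proteins were detected in 8 of 8 cases, with a median of 47.1 TPM. Decorin (Dcn), a small proteoglycan of connective tissue, stood at 102.3 ± 3.15 TPM and testican Spock2 at 77.5 and 76.0 TPM in replicates 1 and 2. Cspg4, the NG2 proteoglycan of oligodendrocyte precursors and pericytes, stood lowest at 3.06 ± 0.177 TPM.

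Genes for hyaluronan and the remaining link proteins, and the other tenascins, were the 2 lists with medians under 1 TPM. Of 12 hyaluronan and link protein genes, 6 were detected, and their list median was 0.792 TPM. The hyaluronidases Hyal2 and Cemip2 stood at 58.1 ± 0.601 and 28.0 ± 2.63 TPM, whereas the synthases were at 0.29 ± 0.0566 TPM for Has1, 0.345 ± 0.106 TPM for Has2 and 0.465 ± 0.148 TPM for Has3. Of the link proteins, Hapln2 was at 0.29 ± 0.0141 TPM, Hapln4 at 0.335 ± 0.0919 TPM and Hapln3 at 1.12 ± 0.0424 TPM, all below Hapln1 with no overlap. The other tenascins were lower than Tnc as well, with Tnr at 1.44 ± 0.417 TPM, Tnxb at 0.095 ± 0.0212 TPM and Tnn at 0.06 ± 0.0424 TPM.

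The enzymes that build and sulfate the chains were nearly all present. The 6 genes of the sugar linker that starts a chain were all detected, from B3gat3 at 63.0 ± 0.509 TPM and B4galt7 at 35.0 ± 1.59 TPM down to the xylosyltransferase Xylt1 at 1.26 TPM in each library. The 6 genes of chain elongation were all detected too, led by Chpf at 30.4 ± 0.735 TPM and Chpf2 at 11.8 ± 0.127 TPM, with the synthase Chsy3 lowest at 3.88 ± 0.827 TPM. Sulfotransferases and epimerases were detected in 9 of 10 cases. The 4-O-sulfotransferase Chst12 stood at 17.4 ± 1.42 TPM and Chst15, which adds the second sulfate of the highly sulfated E units that pleiotrophin and midkine are known to bind, at 16.2 ± 0.339 TPM. Chst13 had 7 reads in replicate 1 and 0 in replicate 2, where a count of 0 allows up to 0.135 TPM by counting error.

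Receptors beside Ptprz1 were present at higher levels than Ptprz1 in several cases. Of 10 genes listed as candidate receptors of pleiotrophin or midkine, 8 were detected, and the list median was 38.2 TPM. Binding was not tested for any of them. Nucleolin (Ncl), a mostly nucleolar protein that can bind both ligands at the cell surface, stood at 163.0 ± 6.48 TPM and the glypican Gpc2 at 143.3 ± 10.5 TPM. The receptor kinases were the low members, with Alk at 1.03 and 0.72 TPM in replicates 1 and 2 and Ltk at 0.355 ± 0.0354 TPM. All 4 genes for receptors of chondroitin sulfate itself were detected, among them the phosphatases Ptprs at 142.8 ± 3.44 TPM and Ptprf at 49.6 ± 0.205 TPM, with Rtn4rl1 lowest at 10.9 ± 2.07 TPM.

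Adhesion molecules known to bind Ptprz1 were all detected, 5 of 5. Ncam1 stood at 304.1 ± 9.57 TPM, L1cam at 74.9 ± 0.0283 TPM and the contactin Cntn1, a neuronal ligand of Ptprz1, at 23.3 ± 0.0707 TPM. All 9 genes for lectican-cleaving proteases and their inhibitor were detected, and the list median was 5.95 TPM. The inhibitor Timp3 was highest at 39.2 ± 1.03 TPM, Mmp2 followed at 29.5 ± 4.31 TPM, and the aggrecanase-family gene Adamts9 was lowest at 1.37 ± 0.0707 TPM.

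**Figure D4:**
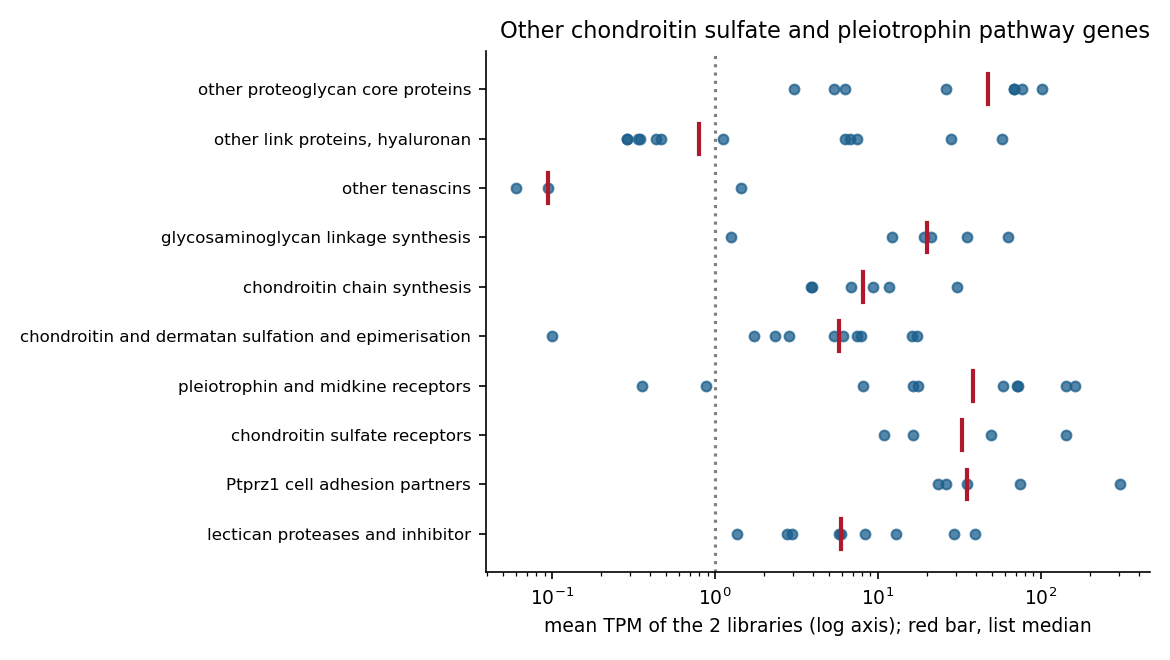
Mean TPM of the 2 libraries on a log axis for each gene of the 10 pathway lists, 1 point per gene, with the list median as a red bar and 1 TPM as a dotted line. The lists of hyaluronan genes with link proteins and of tenascins have medians left of the dotted line, and the other 8 lists lie right of it.

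Between the libraries, 0 of the 10 genes were called different, where a call needed an adjusted p under 0.05 in the exact binomial test and at least a 2-fold difference. Over all 17428 genes tested, 2.15% were called, 0.763% being higher and 1.38% lower in replicate 1. By the same test 7 of the 10 passed on adjusted p alone: 6 lower in replicate 1, against 12.5% of all genes, and Bcan higher, against 11.6%. Passing on adjusted p alone was common, at 24.2% of all genes tested and 38.6% of those averaging at least 1000 counts, of which the set has 8 members, 5 of them passing. The test weighs counting error only, while the spread between the libraries went further: edgeR put the biological coefficient of variation at 9.24% over all tested genes. An exact two-sided sign-flip test over 2 libraries cannot go below p = 0.5, so none was run on single genes.

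The differences fell into small and larger ones. Log2 ratios of counts, replicate 1 over replicate 2, were -0.01 ± 0.02 for Ncan and 0.01 ± 0.04 for Ptprz1, each with its counting SE. They were -0.07 ± 0.05 for Cspg5, -0.13 ± 0.02 for Ptn, -0.18 ± 0.04 for Mdk, -0.18 ± 0.06 for Tnc and 0.20 ± 0.06 for Bcan. The adjusted p of the exact binomial test was 0.624 for Ncan, 0.932 for Ptprz1 and 0.35 for Cspg5, while it was 3.85e-07 for Ptn, 4.32e-05 for Mdk, 0.0164 for Tnc and 0.00391 for Bcan. Differences at least as large as that of Mdk were present in 26.9% of the 12847 genes averaging at least 100 counts. With spike-in scaling all ratios moved by 0.11 towards replicate 2, and 9 of the 10 genes passed on adjusted p alone in the exact binomial test, against 35.8% of all genes. Ptprz1 then stood at -0.10 (adjusted p = 0.0453, exact binomial test), Cspg5 at -0.18 (adjusted p = 0.00143) and Ncan at -0.13 (adjusted p = 5.64e-11), none of which passed with TMM. Bcan stood at 0.08 under that scaling, with an adjusted p of 0.263 in the exact binomial test, and no longer passed.

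Acan, Vcan and Hapln1 differed most, and all were lower in replicate 1. Acan had a log2 ratio of -0.98 ± 0.18 (counting SE; exact binomial test, adjusted p = 9.99e-07), so replicate 2 was 1.97 times replicate 1, just short of the 2-fold threshold. The log2 ratio was -0.47 ± 0.04 for Vcan (adjusted p = 1.52e-26 in the exact binomial test) and -0.46 ± 0.12 for Hapln1 (adjusted p = 0.00165). Ratios as large as these were present in 0.459%, 3.23% and 3.32% of the genes averaging at least 100 counts for Acan, Vcan and Hapln1. Of those 12847 genes, 6324 averaged at least 1000 counts, whereas Acan averaged 133.5 and Hapln1 279. How rare their ratios are among genes of like depth was not tested. With spike-in scaling Acan reached -1.09 and was called, as were 448 of all 17428 genes tested.

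Markers of cartilage and skeletal muscle were lower in replicate 1 as well. The 8 cartilage markers, all detected, summed to 157.1 and 201.4 TPM in replicates 1 and 2, with a median log2 ratio of -0.26. None of the 8 was called, and 5 passed on adjusted p alone in the exact binomial test. All 5 were lower in replicate 1, against 12.5% of all genes tested. The highest, the collagen genes Col2a1 and Col9a3, stood at -0.38 and -0.08 on the log2 scale and the lowest, the matrilin gene Matn1, at -0.08. The lowest ratios of the list were those of Matn4 at -0.82 and Col9a1 at -0.77.

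The 6 skeletal muscle markers, all detected, summed to 122.3 and 208.8 TPM in replicates 1 and 2 with a median log2 ratio of -1.37. Of these markers, 5 were called lower in replicate 1, against 1.38% of all genes tested. The highest, the actin genes Actc1 and Acta1, stood at -0.05 and -1.17 and the lowest, the embryonic myosin gene Myh3, at -1.58. No marker of the cartilage or muscle lists was at 0. The part of these tissues in the Acan, Vcan and Hapln1 values was not tested.

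Other lists had median log2 ratios nearer 0, and none of their genes was called. Each of them also had markers passing on adjusted p alone in the exact binomial test, in both directions. Those higher and lower in replicate 1 were 4 and 1 for neurons and 2 and 1 for radial glia. They were 2 and 1 for oligodendrocyte precursors, 2 and 2 for meninges and mesenchyme, and 1 and 1 for endothelium. Radial glia markers summed to 3089 and 3007 TPM in replicates 1 and 2, with 8 of 8 detected and a median of -0.01. Fabp7 stood at 0.15, Vim at 0.02 and Pax6 at -0.06, while Sox9, a factor also known from cartilage, stood at -0.53. Neuron markers summed to 2866 and 2720 TPM, with 6 of 6 detected and a median of 0.09. Tubb3 stood at 0.14, Stmn2 at 0.10 and Elavl3 at 0.16, while Dcx went the other way at -0.04. The radial glia and neuron lists are those for cells of the neural tube itself, and their defining markers were present.

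Oligodendrocyte precursor markers, 5 of 5 detected, summed to 51.4 and 49.4 TPM in replicates 1 and 2 with a median of 0.09. Olig1 stood at 0.36, Sox10 at 0.25 and Cspg4 at -0.06, while Pdgfra, which mesenchyme also expresses, stood at -0.49. The part of other tissues in the Sox9 and Pdgfra values was not tested. Markers of meninges and mesenchyme, 6 of 6 detected, summed to 743.0 and 784.0 TPM with a median of -0.05. Their members went both ways, with Col3a1 at 0.14, Col1a1 at -0.11 and Twist1 at -0.67. Endothelial markers, 4 of 4 detected, summed to 119.3 and 123.5 TPM with a median of -0.06, and Cldn5 stood at 0.13, Kdr at -0.07, Cdh5 at -0.05 and Pecam1 at -0.34.

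**Figure D5:**
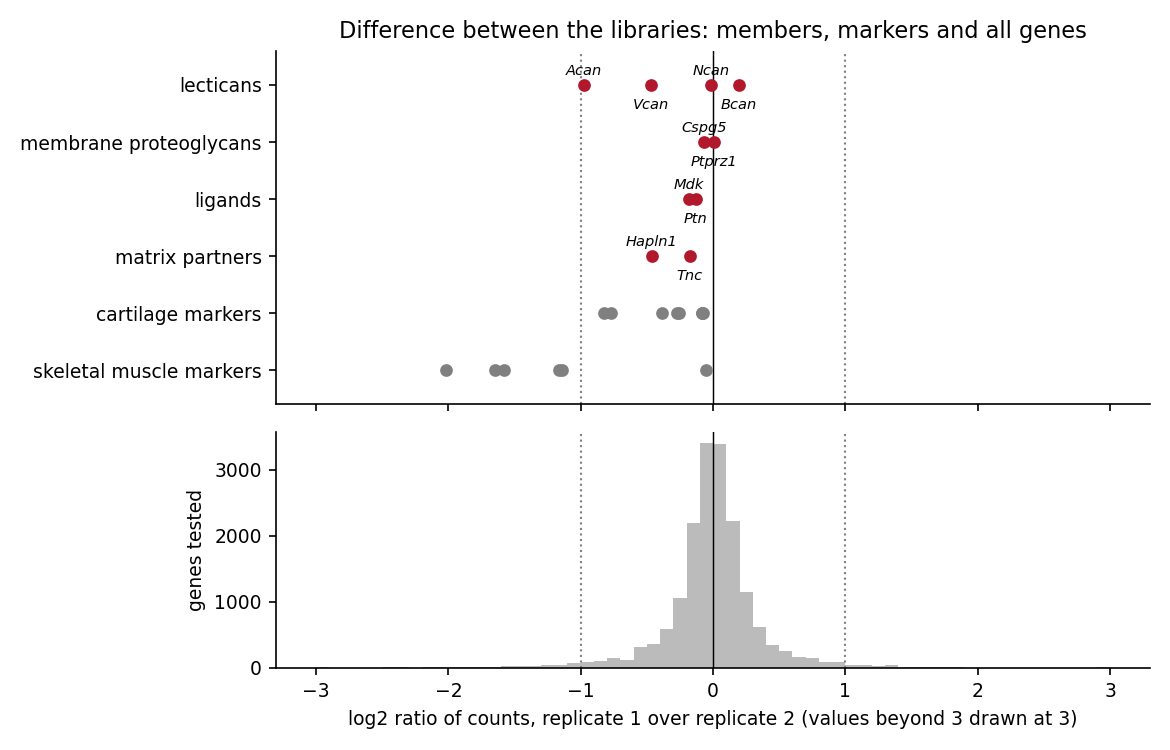
Log2 ratio of counts, replicate 1 over replicate 2, for the 10 genes by role (red, named) and for cartilage and skeletal muscle markers (grey), above the histogram of all 17428 genes tested; dotted lines mark 2-fold. Acan lies next to the lower dotted line, and 5 of the 6 muscle markers lie beyond it.

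Annotated overlaps bear on few reads of the set. The antisense gene Gm4117 within Vcan had 40 and 18 reads in replicates 1 and 2, the pseudogene Gm8546 within Hapln1 had 8.53 and 9.17, and 8030451A03Rik within Tnc had 9.12 and 3. How strand was used in counting is not given in the sources used here, so reads of opposite strands at these places may not have been told apart.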

How the data were processed

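Estimated reads per gene and transcript of 2 total RNA libraries were used as deposited. The deposited expected counts are estimated reads per feature, per the file headers, and were rounded for tests. The deposited TPM scale abundance over all features, spike-ins included, which held 13.0% and 12.6% of it in replicates 1 and 2. The deposited isoform percent is a transcript's share of its gene's TPM. Build mm10 and annotation GENCODE M4 are given in the deposited notes; the aligner, the quantifier and the use of strand are not stated there. The deposited posterior SD, per the file headers, is in reads.

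Names, mm10 coordinates and transcript sequences came from GENCODE M21, which named 42462 of 43346 mouse genes. Genes with no name, at 0.201% and 0.216% of the counts on genes, were kept in library totals. Features identified by number only (26248) and the phiX genome were not used.

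Genes averaging at least 10 rounded counts were compared by a two-sided exact binomial test against library shares from trimmed mean of M values (TMM, edgeR 4.0.16, R 4.3.3), with Benjamini-Hochberg adjustment over 17428 genes. The limits of 100 and 1000 counts behind shares of genes were chosen after the data were seen. Log2 ratios are of counts with 0.5 added. The coefficient of variation is edgeR's. DESeq2 1.42.0 size factors, spike-in scaling and other filters were alternatives. Tables were handled with pandas 2.3.3 and NumPy 2.4.6 in Python 3.11.15, tests were run with SciPy 1.17.1, and figures were drawn with matplotlib 3.10.9. The test was tried on simulated data. Floors are 3 counts and cover counting error only. The labels call the libraries biological replicates without saying how embryos were pooled, so p-values measure the difference between these libraries alone.

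The members and lists were chosen with earlier results of these data known. All 10 members are named, and of each list the 2 highest and the lowest gene by mean TPM. Further genes, such as Hapln3, Hapln4, Has2, Has3, Tnxb, Alk, Matn4, Col9a1, Sox9, Dcx, Pdgfra and Pecam1, were named after their values were seen.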

Additional observations from a re-analysis of the deposited data

How the results depend on the processing

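In all, 207 alternative values were computed for 49 results. Of these, 187 kept their direction and call or stayed within the spread between the libraries. Many of them could not have moved, so the 187 does not measure robustness. A changed fold threshold leaves log2 ratios as they are, and rescaled TPM leaves shares, ratios and order as they are. Leaving out 1 of 2 libraries returns a value that itself sets the spread. Ncan counts as kept under spike-in scaling although its adjusted p went from 0.624 to 5.64e-11 in the exact binomial test. The count of the 10 genes called between the libraries was 1 in place of 0 with spike-in scaling and with a threshold of 1.5-fold, in both cases Acan. Over all 17428 genes tested, 374 calls became 448 with spike-in scaling and 676 at 1.5-fold. Among the 14157 genes averaging at least 50 counts there were 117 calls. Spike-in scaling reversed Ptprz1 to -0.10 on the log2 scale. With posterior mean estimates the Ncan share of lectican TPM was 66.7%, the Vcan form with both exons held 46.3%, that with neither 27.9%, the partial Vcan models 18.8% and the partial Tnc model 0.925%; the cause was not tested. TPM rescaled without spike-ins raised the levels of all 10 genes, for example Ncan to 116.2 TPM. No paired analysis was possible because there is only 1 group. Depth limits Acan, at 116 and 151 reads, and the rarer Vcan forms.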
